A study of Mus musculus with 2 samples.

Results

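The ErbB receptor genes Egfr, Erbb2, Erbb3 and Erbb4 and the EGF-family ligand genes Nrg1, Tgfa, Btc, Epgn and Hbegf were followed across the epithelial cell types of the adult mouse mammary gland. These 9 genes were taken by symbol from the 27998 genes of the deposited count tables. Each had a single entry. The study captured single mammary cells of adult FVB/NJ mice, an inbred laboratory strain, in 2 droplet libraries. One library held total epithelium (Lin-CD24+) and the other held sorted basal cells (Lin-CD29hiCD24+), and no treatment was given in either. The Lin- gate is meant to remove blood and endothelial cells. Cells of several mice were pooled before each capture, and the counts carry no label that separates the mice, so that each group was 1 library with no replicate. No test between conditions was therefore possible, and every interval below is a 95% interval that covers counting error only.

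ErbB receptors are tyrosine kinases that act as pairs at the cell surface. EGFR binds ligands such as TGFα and amphiregulin, ERBB3 and ERBB4 bind neuregulins, and ERBB2 has no known ligand of its own and serves as the preferred partner of the others. Most EGF-family ligands are made as membrane-bound precursors and are released by metalloproteases, so that one cell can signal to its neighbours. In the mammary gland the family is known for its roles in ductal growth, in alveolar development and, for ERBB2, in breast cancer.

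The 3302 cells of the total epithelium library were split by summed counts of marker genes. Cells with 10 or more counts of Krt5, Krt14 and Acta2 were called basal. Those with 10 or more counts of Prlr, Stc2 and Gpx3 were called mature luminal (ML). Of the other cells, those with 3 or more counts of the luminal keratins Krt8, Krt18 and Krt19 were called luminal progenitor (LP). This gave 1280 basal cells with a median of 1820 counts per cell, 766 LP cells with a median of 2484 and 1133 ML cells with a median of 3403. A further 26 cells passed both the basal and the ML threshold and 97 passed none, and these were kept out of the classes. Summed over cells, the classes held 2651803, 2158548 and 4132895 counts, and levels are given as CPM, which are counts scaled to the total of the class.

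Markers that the split did not use stood with the class names. The 5 basal markers Cxcl14, Myl9, Mylk, Oxtr and Trp63 summed to 8340 CPM in basal cells, and in LP and ML cells they reached 0.872% and 0.258% of that level. The 7 LP markers, Elf5, Kit, Cd14, Aldh1a3, Csn3, Wfdc18 and Trf, summed to 54306 CPM in LP cells, with 4.80% of that in basal and 9.20% in ML cells. The 5 ML markers Esr1, Pgr, Foxa1, Ly6d and Cited1 summed to 4614 CPM in ML cells, with 1.10% of that in basal and 13.0% in LP cells. These sums rest mostly on a few genes. Trf alone was at 43966 CPM in LP cells, Cxcl14 at 4703 CPM in basal cells and Ly6d at 3172 CPM in ML cells. Single markers varied, with Oxtr at 220 CPM in basal and 19.0 CPM in LP cells, and Esr1 at 29.8 CPM in ML and 7.41 CPM in LP cells. The classes shared marker counts. Of the LP cells 116 held 3 or more counts of the ML rule genes and 15 of the basal rule genes, 117 ML cells held 3 or more counts of Elf5, Kit, Cd14 and Aldh1a3, and 701 of the 1280 basal cells held 3 or more luminal keratin counts. Of the other cell types the gate could let through, the 6 fibroblast markers summed to 358, 83.4 and 1419 CPM in basal, LP and ML cells. Most of this was Dcn, which was at 1281 CPM in ML cells, whereas Col1a1 was at 28.8 CPM there. The 4 immune markers summed to 44.5, 4.17 and 1.69 CPM, of which Cd74 was at 41.1 CPM in basal cells, while Ptprc and Cd3e were at 0 in every class. The 4 endothelial markers summed to 4.53, 6.02 and 4.11 CPM, mostly Pecam1, with Kdr at 0 in every class. The 4 pericyte markers summed to 13.2, 17.1 and 23.95 CPM, with Notch3 at 23.5 CPM in ML cells. The 4 Schwann cell markers summed to 25.3, 54.7 and 8.95 CPM, with Sox10 at 51.9 CPM in LP cells. The adipocyte markers Adipoq, Plin1 and Cidec were at 0 in basal and LP cells and summed to 1.69 CPM in ML cells. The part of such cells, of free RNA and of doublets in the levels below was not tested beyond the values given beside them.

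The sequences before the start site are shown for the receptor genes whose levels were on opposite sides of the epithelium and for the 2 EGF-type ligand genes that were highest in ML cells. The windows come from RefSeq on GRCm38.p6, which held 6 of the 9 genes. They end at the start site, or earlier where the GENCODE M21 gene begins earlier, and the Erbb2 and Epgn windows are shorter by those bases. The window of Egfr lies at chr11:16751953-16752202 on the plus strand, that of Erbb2 at chr11:98412234-98412469 on the plus strand, that of Btc at chr5:91402995-91403244 on the minus strand and that of Epgn at chr5:91027267-91027463 on the plus strand. Capitals mark GGTCA on either strand, the core letters of an estrogen response element arm.
Egfr: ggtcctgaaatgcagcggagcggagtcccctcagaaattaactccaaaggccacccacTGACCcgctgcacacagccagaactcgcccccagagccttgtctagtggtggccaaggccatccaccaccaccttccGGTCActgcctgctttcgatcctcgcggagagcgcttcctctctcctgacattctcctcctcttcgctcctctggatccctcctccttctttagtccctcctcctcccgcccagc
Erbb2: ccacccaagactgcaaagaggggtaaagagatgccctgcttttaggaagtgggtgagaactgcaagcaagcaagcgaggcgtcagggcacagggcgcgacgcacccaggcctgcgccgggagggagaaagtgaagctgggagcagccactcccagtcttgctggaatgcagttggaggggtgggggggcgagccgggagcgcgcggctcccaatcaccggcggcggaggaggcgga
Btc: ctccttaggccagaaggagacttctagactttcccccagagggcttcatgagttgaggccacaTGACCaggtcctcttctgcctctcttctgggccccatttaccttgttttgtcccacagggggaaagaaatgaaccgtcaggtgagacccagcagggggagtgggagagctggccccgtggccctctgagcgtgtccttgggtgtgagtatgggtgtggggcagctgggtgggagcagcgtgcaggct
Epgn: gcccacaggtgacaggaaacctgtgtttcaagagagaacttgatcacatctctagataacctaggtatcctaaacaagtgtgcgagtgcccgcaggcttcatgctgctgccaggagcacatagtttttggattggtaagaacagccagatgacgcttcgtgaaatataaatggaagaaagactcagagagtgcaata

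In the full windows of 250 bases, Egfr held GGTCA 2 times and Btc 1 time, while Erbb2 and Epgn held none. These letters are present in 35.2% of all 32851 windows of that length, so that a match is common. The AP-1 motif TGANTCA, present in 6.75% of all windows, and the FOXA motif TGTTTNC, present in 17.8%, were found in none of the 4. A match is a run of letters and not a site, and the lack of one says only that these letters are not in the window. The GC content of the full windows was 60.8% for Egfr, 66.0% for Erbb2, 59.6% for Btc and 46.8% for Epgn, beside a median of 52.4% over all windows. Only Epgn was below that median. The genes of Epgn, Ereg, Areg and Btc lie within 376 kb on chromosome 5, in that order of their start coordinates.

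Egfr, the receptor for amphiregulin and TGFα, was highest in basal cells. Basal cells held 81 counts in 75 cells, or 30.5 CPM (24.3 to 38.0). LP cells held 31 counts in 30 cells, or 14.4 CPM, and ML cells held 10 counts in 10 cells, or 2.42 CPM. The levels thus fell in the order basal, LP, ML, and the intervals of the 3 classes did not overlap. The basal level was 2.13 times the LP level (1.39 to 3.33) and 12.6 times the ML level (6.52 to 27.3). The Egfr level of LP cells was 47.0% of the basal one, whereas the independent basal markers reached 0.872% there. The genes with 300 or more counts whose split over the classes lay nearest to that of Egfr were Prelp and Ldhb, among 4030 candidates. Egfr lies on chromosome 11 (GRCm38, 16752203 to 16918158, plus strand).

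Erbb2 ran the opposite way. It held 12 counts or 4.53 CPM in basal cells, 27 counts or 12.5 CPM in LP cells and 107 counts or 25.9 CPM in ML cells. The ML level was 2.07 times the LP level (1.35 to 3.28) and 5.72 times the basal level (3.14 to 11.4), and the LP level was 2.76 times the basal level (1.35 to 5.99). Erbb3, the partner of ERBB2 that binds neuregulins but has little kinase activity, followed the same order. It held 3 counts or 1.13 CPM in basal cells, 34 counts or 15.8 CPM in LP cells and 123 counts or 29.8 CPM in ML cells. The ML level of Erbb3 was 1.89 times the LP level (1.28 to 2.85) and 26.3 times the basal level (8.79 to 129). In LP cells Erbb2 and Erbb3 stood at 48.3% and 52.9% of their ML levels, beside 13.0% for the independent ML markers. The genes nearest to Erbb2 in their split over the classes were Nit1 and Sqrdl, and those nearest to Erbb3 were Coro2a and Fam174b. Erbb2 lies on chromosome 11 (98412470 to 98437716) and Erbb3 on chromosome 10 (128567523 to 128589652).

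Erbb4, the other neuregulin receptor, was close to the limit of these data. It had 2 counts in 2 LP cells, 1 count in the sorted basal library and none in the 1280 basal and 1133 ML cells. A count of 0 allows up to 1.13 CPM in basal and 0.726 CPM in ML cells, taking 3 counts as the limit. No difference between classes can be read for Erbb4 at this depth.

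**Figure D1:**
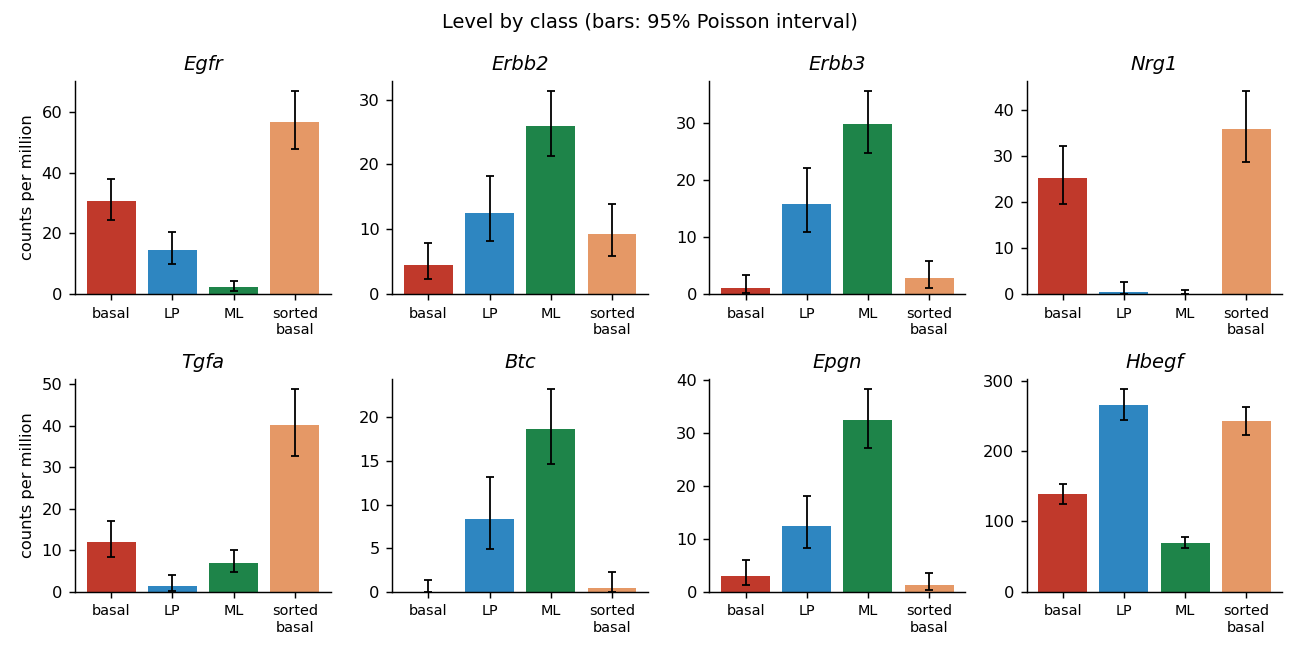
Level of 8 of the 9 genes in CPM (vertical axes start at 0 and differ between genes) in the basal, LP and ML cells of total epithelium and in the sorted basal library. Bars are levels from summed counts and whiskers are exact Poisson intervals. Egfr, Nrg1 and Tgfa are highest in the basal bars among the classes, Erbb2, Erbb3, Btc and Epgn in the ML bars, and Hbegf in the LP bar at 266 CPM.

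Nrg1 encodes neuregulin 1, a ligand of ERBB3 and ERBB4, and its counts were nearly all in basal cells. Basal cells held 67 counts in 56 cells, or 25.3 CPM (19.6 to 32.1). LP cells held 1 count and ML cells none. The ratio of basal to LP was 54.5 with an interval of 9.46 to 2186. With 3 counts as the limit for a count of 0, the basal level was 34.8 times that of ML cells. The lower end of the interval of basal to ML was 27.5. With 1 LP count the size of the first ratio is loose, and it was 18.0 at a class threshold of 20, where LP held 4 counts. The gene of the ligand and that of its receptor Erbb3 were thus highest in different classes, basal and ML. Nrg1 lies on chromosome 8 (31814551 to 32884029, minus strand).

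Tgfa, which encodes the EGFR ligand TGFα, was at 12.1 CPM in basal cells (32 counts), 1.39 CPM in LP cells (3 counts) and 7.02 CPM in ML cells (29 counts). Its basal level was 8.68 times that of LP cells (2.72 to 44.3). The step from ML to basal was 1.72 with an interval of 1.01 to 2.95, whose lower end is close to 1, and it was 1.14, on 8 and 29 counts, when cells with 3 or more counts of another class's rule genes were left out. These neighbours in the order can hardly be told apart at this depth. Of the 8 members counted often enough to order, Tgfa alone was lowest in LP cells.

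Btc encodes betacellulin, a ligand of EGFR and ERBB4. It was counted 77 times in 60 ML cells, or 18.6 CPM, and 18 times in 16 LP cells, or 8.34 CPM. No count fell in the 1280 basal cells, which allows a share of up to 0.234% of cells with a count. The ML level was 2.23 times the LP level (1.32 to 3.97). It was 16.5 times that of basal cells with 3 counts as the limit there, and the interval of ML to basal began at 13.1. With cells thinned to 1000 counts the ML to LP ratio was 1.25 (0.574 to 2.86), on 21 and 11 counts, an interval that includes 1. The LP level was 7.37 times that of basal cells with the same limit, and the interval of LP to basal began at 5.40. In the sorted basal library Btc had 1 count in 4771 cells, and that count was in 1 of the 424 cells with 3 or more luminal keratin counts.

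Epgn encodes epigen, another EGFR ligand, and its counts sat in very few cells. ML cells held 134 counts or 32.4 CPM, LP cells 27 counts or 12.5 CPM and basal cells 8 counts or 3.02 CPM. The 134 counts of ML came from 35 of 1133 cells, and 1 cell alone held 29 of them. The 10 cells with most counts held 71.6% of the Epgn counts of ML, against 31.2% for Btc and 17.9% for Erbb3 in the same class. In LP 1 cell held 16 of the 27 counts. A Poisson interval understates the spread of counts that are clumped in this way, and the ML to LP ratio of 2.59 (1.70 to 4.08) became 8.34 when the 3 cells with most Epgn counts were left out of each class, leaving 80 and 5 counts. The ML cells with Epgn had a median of 3956 counts in all, against 3377 for the other ML cells. Fbxo6 and Cited4 had the split over the classes nearest to that of Epgn.

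**Figure D2:**
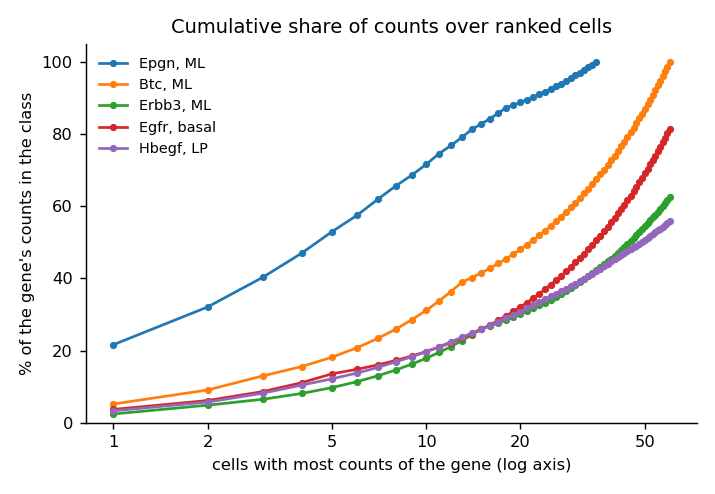
Cumulative percent of a gene's counts in its highest class (vertical axis) held by the cells with most counts of that gene, taken in rank order up to 60 cells (horizontal axis, log scale). The Epgn line starts at 21.6% with 1 cell and reaches 71.6% at 10 cells. Egfr in basal cells and Hbegf in LP cells are at 19.8% and 19.7% with 10 cells. This share also depends on the number of counts, which was 81 in 75 cells for Egfr and 574 in 234 cells for Hbegf. The 2 near-equal shares thus do not mean an equal spread, and Hbegf is the more clumped of the 2.

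Hbegf encodes heparin-binding EGF-like growth factor, a ligand of EGFR and ERBB4 that is also known as an early response gene, and it was the ligand with the largest number of counts among the members. LP cells held 574 counts or 266 CPM (245 to 289), basal cells 367 counts or 138 CPM (125 to 153) and ML cells 287 counts or 69.4 CPM (61.6 to 78.0). The order was LP, basal, ML with no overlap of the intervals. Hbegf counts were clumped too, as the 574 counts of LP came from 234 of 766 cells, with up to 19 in 1 cell. The Poisson intervals of Hbegf and those of its ratios are therefore too narrow, by an amount that was not measured. The LP level was 1.92 times the basal level (1.68 to 2.20) and 3.83 times the ML level (3.32 to 4.43). At its own depth 30.5% of LP cells had a Hbegf count, against 18.3% of basal and 13.3% of ML cells. Arl4d and Chka were nearest to Hbegf in their split over the classes.

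Since Hbegf belongs to the early response genes, the cells of each class were ranked by the share of their counts from Fos, Fosb, Jun, Egr1, Atf3 and Ier2 and cut into 3 tertiles of equal size. In LP cells Hbegf was at 177 CPM in the lowest tertile, 286 CPM in the middle and 366 CPM in the highest, where these 6 genes took 4.14% of counts against 0.308% in the lowest. The ratio of the highest to the lowest tertile in LP was 2.07 (1.67 to 2.57). In ML cells Hbegf went from 40.9 CPM to 88.5 and 77.9 CPM, a ratio of 1.90 (1.36 to 2.69), and in basal cells from 123 CPM to 159 and 135 CPM, a ratio of 1.10 (0.839 to 1.43). With every cell thinned to 1000 counts before ranking, the ratio was 2.10 in LP cells (1.46 to 3.05). It was then 1.16 in ML cells (0.600 to 2.27), an interval that includes 1, and 1.67 in basal cells (1.11 to 2.55), one that does not. The ratios of ML and basal cells thus changed with thinning, although the intervals before and after it overlap. Thinning also ranked the cells anew on fewer counts, and the cause of the change was not tested. The order of the classes was the same in the lowest tertile, at 177 CPM in LP, 123 in basal and 40.9 in ML cells. Across whole classes these 6 genes took similar shares of the counts, 1.62% for basal, 1.48% for LP and 1.62% for ML. In basal cells Tgfa was at 19.8 CPM in the lowest and 7.29 CPM in the highest tertile, on 19 and 6 counts.

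**Figure D3:**
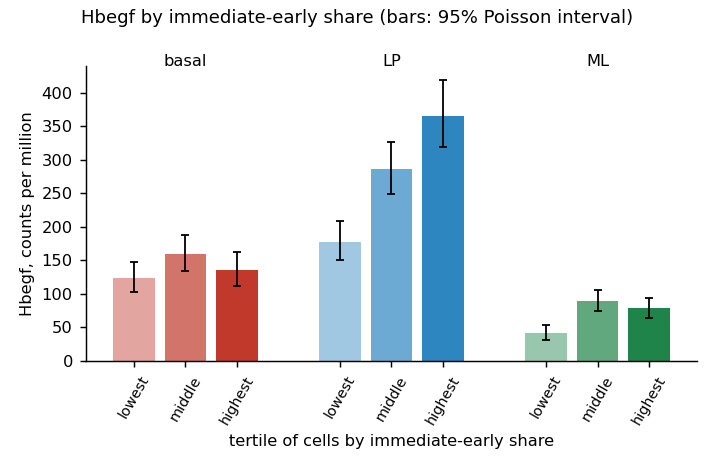
Hbegf level in CPM (vertical axis from 0) in tertiles of the basal, LP and ML cells, ordered within each class by the share of counts from 6 immediate-early genes. Bars are levels from summed counts and whiskers are exact Poisson intervals. The LP bars step up from 177 to 366 CPM, while the basal bars lie between 123 and 159 CPM. Cells are at their own depth, without thinning.

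To compare shares of cells at equal depth, each cell was thinned to 1000 counts, which left out 52 basal, 41 LP and 22 ML cells that were shallower. Egfr was then counted in 3.09% of basal cells (2.20 to 4.22), while LP and ML had 1.24% and 0.180%. Erbb3 was counted in 3.24% of ML cells (2.28 to 4.46), 0.966% of LP cells and 0.0814% of basal cells, which served as the low end for a gene of the other lineage. Erbb2 was counted in 2.16% of ML, 0.828% of LP and 0.244% of basal cells. Btc was counted in 1.62% of ML and 1.52% of LP cells at this depth, and no difference in share can be read between them. Hbegf was counted in 17.5% of LP (14.8 to 20.5), 10.7% of basal and 5.31% of ML cells. At least 1 of the 4 receptor genes was counted in 3.42% of the basal class, 3.17% of LP and 5.58% of ML, and at least 1 of the 5 ligand genes in 14.1%, 19.3% and 8.91%. These shares are of cells with a molecule in a shallow count and not of cells that express a gene.

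The counts were too sparse for receptor pairs within a cell. Of 1111 thinned ML cells, 24 had an Erbb2 count and 36 an Erbb3 count, and none had both, where the product of the shares gives 0.778 cells. Egfr and Hbegf were counted in the same 4 of 1228 basal cells, where the product gives 4.05. Btc and Areg, which encodes amphiregulin, were counted together in 14 ML cells, where the product gives 11.5. In each case the number of cells with both was within a few cells of the product.

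The members were then read against all genes by a fixed rule of size. A gene was called for a class when it had 30 or more counts over the 3 classes and was at least 2-fold higher in that class than in each of the others. Of the 10065 genes with enough counts, 12.8% were called for basal, 4.34% for LP and 8.75% for ML cells. All members but Erbb4 had enough counts. Egfr and Nrg1 were called for basal cells, Erbb2, Btc and Epgn for ML cells and none for LP cells, while Erbb3, Tgfa and Hbegf were not called. The median ratio of the highest class to the next was 2.10 over the 8 members, beside 1.42 over all genes with enough counts. Many of the members lay near 2-fold, and the calls moved with the settings. Nrg1 was called for basal cells under each of the 3 other settings, which were size factors and class thresholds of 5 and of 20 marker counts. Size factors move every ratio of basal to LP by -0.19 and every ratio of ML to LP by -0.22 on the log2 scale. Egfr was called under 1 of these and Epgn under 2, and Erbb2 and Btc were each called under 1. Tgfa was called for basal cells at a threshold of 20. Hbegf was called for LP cells with size factors and with a threshold of 5. No member kept an ML call at a threshold of 20, where cells with fewer ML marker counts passed to LP, and the ML to LP ratio of Erbb2 was then 1.53. The ratio of the highest class to the next kept its direction for all 8 members under all 14 alternatives, including both chosen after seeing the data. Some alternatives altered only a class outside a member's ratio and could not move it. Leaving out the 12 ML cells with 3 or more collagen counts moved no ML to LP ratio outside its interval. Thinning took the ML to LP ratio of Erbb3 from 1.89 to 3.26, on 40 and 8 counts.

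Of 6 other ligand genes, 2 had enough counts, Areg and Nrg4, and both were called for ML cells. Areg encodes amphiregulin, the EGFR ligand that acts downstream of estrogen in the pubertal gland. It was at 24.5 CPM in basal, 165 CPM in LP and 2995 CPM in ML cells, where 870 of 1133 cells had a count. The ML level was 18.2 times the LP level (16.3 to 20.2). The Areg level of LP cells was 5.51% of the ML one and that of basal cells 0.818%. The sum of the independent ML markers, which rests mostly on Ly6d, stood at 13.0% and 1.10% there. The part of free RNA or of cells put in the wrong class in these Areg counts was not tested. Nrg4, which encodes an ERBB4 ligand, had 32 counts in 27 ML cells, or 7.74 CPM, and none in basal or LP cells. Its ML level was 5.57 times the LP one with 3 counts as the limit, and the interval of ML to LP began at 4.27. Ereg and Nrg2 had 1 count each in the 3 classes, both in basal cells, and 11 and 4 counts in the sorted basal library. Egf and Nrg3 had no count in the classes or in that library.

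The 6 ligand genes above belong to a list of 61 genes of the pathway other than the members. Of the 61, 53 had enough counts, and 9 were called for basal, 2 for LP and 8 for ML cells. The 8 ML calls include Areg and Nrg4. The median ratio of the highest class to the next was 1.46 over these 53 genes, close to that of all genes. The inhibitors and feedback genes had 14 with enough counts, of which 6 were called for basal, 1 for LP and 1 for ML cells. Of the 7 genes for the release of ligands from the membrane, 3 were called for ML cells and none for another class. The kinase cascade had 15 of 18 genes with no call, and the adaptors 5 of 6. The shares called over all genes, 12.8%, 4.34% and 8.75%, leave most genes with no call as well. The calls of the whole list were near that share for LP cells, 2 of 53, and somewhat above it for basal cells, 9 of 53. For ML cells, 8 of 53, they were further above it. These differences rest on few genes and were not tested.

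Among the inhibitors, Spry1, a Sprouty protein that dampens receptor tyrosine kinase signals, was at 96.2 CPM in basal, 3.24 CPM in LP and 4.36 CPM in ML cells, and its basal level was 22.1 times the ML level (13.7 to 37.9). Spred1 and Spred2, which act on the same cascade, were 3.15 and 2.52 times higher in basal than in ML cells, the next class. Lrig1, a transmembrane protein that promotes the breakdown of ErbB receptors, was at 17.7, 6.95 and 4.11 CPM in basal, LP and ML cells, the same order as Egfr. Its relative Lrig3 was at 14.7 CPM in basal and 1.39 CPM in LP cells and had no count in ML cells. Socs3, a feedback inhibitor of cytokine receptors, was at 4517 CPM in basal, 378 CPM in LP and 1058 CPM in ML cells. Errfi1, which binds and inhibits the EGFR kinase and is itself induced by it, was at 2281 CPM in basal and 1818 CPM in LP cells, a step of 1.26 that gave no call. It was at 364 CPM in ML cells, 6.26 times lower than in basal cells. The phosphatase gene Ptpn1 was the inhibitor called for ML cells, at 313 CPM against 120 CPM in basal cells. Dusp4 was also highest in ML cells, at 18.9 CPM against 9.73 CPM in LP and 4.90 CPM in basal cells, with no call. Spry2, of the same family as Spry1, was the inhibitor called for LP cells, at 11.6 CPM against 5.28 CPM in basal and 1.45 CPM in ML cells.

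Of the genes for ligand release, Adam17, the main protease for TGFα, amphiregulin and HB-EGF, was at 25.9 CPM in ML cells against 11.7 CPM in basal and 11.6 CPM in LP cells. Its ML level was 2.24 times the LP level (1.44 to 3.61). In the sorted basal library Adam17 was at 35.4 CPM, above the ML class and 3.02 times the basal class (1.99 to 4.71). By CPM the ML rank of Adam17 thus held within total epithelium only. Size factors move every ratio of the sorted library to the basal class by -0.45 on the log2 scale, so that this comparison depends on the scaling. Adam10, which releases betacellulin, was at 110 CPM in ML cells (109.6 from 453 counts), 26.4 CPM in LP and 22.2 CPM in basal cells. Rhbdl2, a rhomboid protease, was at 17.2 CPM in ML and 3.71 CPM in LP cells, 4.64 times lower (2.23 to 11.2). In the sorted basal library Adam10 and Rhbdl2 were at 37.0 and 1.61 CPM, below their ML levels. Muc1, a luminal mucin whose protein binds ErbB receptors, was one of the 2 genes called for LP cells, at 106 CPM against 9.44 CPM in ML and 2.64 CPM in basal cells.

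**Figure D4:**
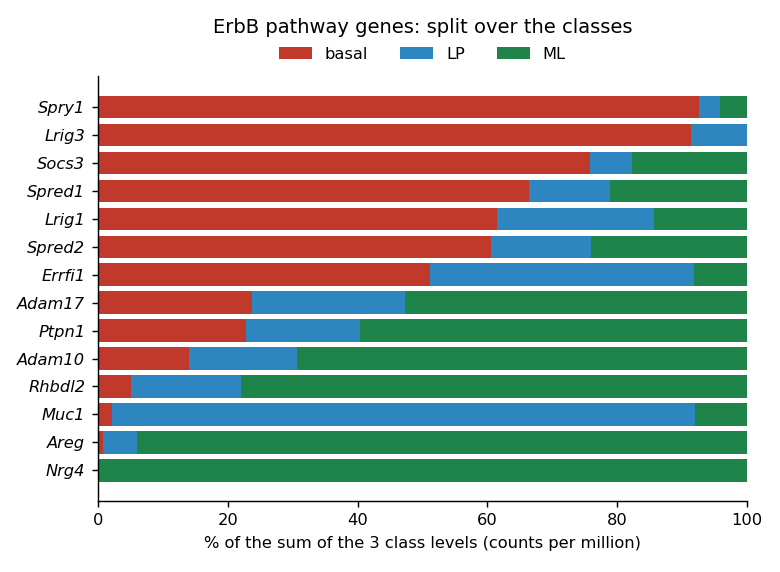
Split of the level of 14 pathway genes over basal, LP and ML cells, as percent of the sum of the 3 class levels in CPM (horizontal axis). Genes are ordered by their basal share. Spry1, Lrig3, Socs3, Spred1, Lrig1 and Spred2 are mostly basal, Muc1 is mostly LP, and Adam17, Ptpn1, Adam10, Rhbdl2, Areg and Nrg4 have their largest share in ML cells.

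The sorted basal library gave a second view of basal cells. It held 4771 cells with a median of 487 counts against 1820 in the basal class of total epithelium, so that only pooled levels were set side by side. Egfr was at 56.7 CPM there against 30.5 CPM in the basal class, Nrg1 at 35.8 against 25.3 CPM, Tgfa at 40.2 against 12.1 CPM and Hbegf at 242 against 138 CPM. The ratio was 1.85 for Egfr (1.40 to 2.47), 1.42 for Nrg1 (1.02 to 1.97), 3.33 for Tgfa (2.22 to 5.13) and 1.75 for Hbegf (1.54 to 1.999). Erbb2 was at 9.24 against 4.53 CPM and Erbb3 at 2.81 against 1.13 CPM, on 23 and 7 counts in the sorted library. Of the 9269 genes with 30 or more counts over the sorted library and the basal class, 28.6% were at least 2-fold higher and 15.8% at least 2-fold lower in the sorted library. With size factors in place of totals these shares were 12.4% and 23.5%, since that scaling moves every gene by -0.45 on the log2 scale. Under it the ratio was 2.44 for Tgfa, 1.36 for Egfr (1.03 to 1.81) and 1.28 for Hbegf (1.13 to 1.47), and 1.04 for Nrg1, whose interval then included 1. The 6 immediate-early genes took 2.23% of counts in the sorted library against 1.62% in the basal class. The sort, the capture and the depth of the libraries cannot be told apart.

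In the sorted library 424 cells, 8.89%, had 3 or more luminal keratin counts. These counts do not mark luminal cells by themselves, as 701 of the 1280 cells of the basal class had as many, and Egfr was at 32.7 CPM in the 424 cells. All 13 Areg counts of the library fell in 5 of these cells. Of the Egfr counts 131 of 141 were in the other 4347 cells, as were 82 of 89 Nrg1 counts and 92 of 100 Tgfa counts. These 4347 cells were 91.1% of the library and held 2183128 of its 2488704 counts, so that such shares are close to those of all counts. In those cells Egfr was at 60.01 CPM, Nrg1 at 37.6 CPM and Tgfa at 42.1 CPM. In the whole sorted library Btc had 1 count and Epgn 3, against 0 and 8 counts in the basal class.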

How the data were processed

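Single cells were captured on the 10X Genomics Chromium system, which counts the 3′ ends of RNA molecules by molecular tags. The authors aligned and counted reads in Cell Ranger against mm10 (version 1.2.1 per the labels, another version in the study's methods) and deposited raw molecule counts per gene and cell, without normalization. All 4771 sorted basal cells (2488704 counts, 137 to 1946 per cell) and all 3302 total epithelial cells (9227651 counts, 802 to 12967 per cell) were used. The libraries share 28 cell barcodes. No doublet caller was run. Cells past both the basal and the ML threshold were set aside, and the deepest 5% of cells were left out as an alternative. Of the cells of total epithelium, 26 had a basal marker sum of 7 to 9 and 21 one of 10 to 12, and 52 and 71 had an ML marker sum in these ranges.

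Counts were summed per class. Levels have exact Poisson intervals, shares Clopper-Pearson intervals, and ratios exact conditional binomial intervals, all at 95%. With 1 library per group there was no test. Levels of different genes were not compared, since 3′ counts depend on the gene's 3′ end. Of the pathway list, the 12 called genes with the largest ratio and Areg, Adam17, Errfi1 and Lrig1 are named, and some further genes are given beside them. Genes most like a member were the 2 nearest by Euclidean distance of the split over the classes, for members with 100 or more counts. The members, lists and rules were chosen with earlier results of these data known. Erbin was matched by its older symbol. Gene positions came from GENCODE M21 (GRCm38) and windows before start sites from RefSeq (GRCm38.p6). The code was tested on simulated data and ran in Python 3.11.15 with numpy 2.4.6, scipy 1.17.1, pandas 2.3.3 and matplotlib 3.10.9. Data of the study from other platforms were not analysed here.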

Additional observations from a re-analysis of the deposited data

Results flagged for a closer look

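Counts outside the classes stood above the limit that a count of 0 allows, which is 18.8 CPM in the cells that passed no threshold and 24.1 CPM in the cells that passed both the basal and the ML threshold. In the 97 cells that passed none, Egfr was at 37.5 CPM on 6 counts, Nrg1 at 25.0 CPM on 4 counts and Hbegf at 225 CPM on 36 counts. The 6 fibroblast markers summed to 8489 CPM in these cells. The Schwann cell, immune, pericyte and endothelial markers summed to 550, 450, 356 and 338 CPM. The independent basal, LP and ML markers summed to 1313, 1425 and 12.5 CPM. In the 26 cells that passed both thresholds, Hbegf was at 137 CPM on 17 counts in 7 cells, and Areg was at 2122 CPM. The part of other cell types and of doublets in these levels was not tested.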

How the results depend on the processing

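Of 112 recomputed class ratios of the 8 members, none changed direction and 109 stayed within the counting interval of the reported value. Some of these could not change, because the alternative altered only a class outside the ratio. Leaving out ML cells with progenitor counts, for example, could not move a ratio of basal to LP. On the log2 scale the exceptions were Erbb3 at 1.71 and Btc at 0.32 for ML to LP with cells thinned to 1000 counts, and Epgn at 3.06 for ML to LP without the 3 cells with most counts, an alternative chosen after seeing the data, as was a collagen filter without Dcn. The cause was not tested. In the sorted basal library against the basal class, size factors gave 0.44 for Egfr and 0.36 for Hbegf. The log2 ratio of Hbegf between the highest and the lowest tertile by immediate-early share was 0.74 in basal and 0.22 in ML cells after thinning. The genes called for basal, LP and ML cells numbered 1291, 437 and 881. They numbered 3014, 1085 and 2087 with 1 or more counts required, 737, 265 and 567 with 100 or more, and 802, 268 and 406 at 3-fold, which follows from fewer or more genes passing. At a class threshold of 20 the ML count was 557. All 8 shares of cells with a count were lower after thinning, as fewer counts were drawn. Depth is the limit for Erbb4, and for the LP level of Nrg1 and Tgfa, which rest on 1 and 3 counts. No paired analysis was possible because each group is 1 library.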
